A study of Homo sapiens with 12 samples.

Results

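The 9 genes described here code for ubiquitin (UBB), for receptors that bind ubiquitin-tagged cargo (SQSTM1, NBR1 and OPTN), for proteins of the ATG8 family (GABARAPL1 and MAP1LC3B), for 2 proteins of the autophagy machinery (ULK1 and WIPI1) and for a deacetylase that moves ubiquitinated aggregates (HDAC6). They were taken by symbol from the table of raw counts and are 9 of its 43735 entries. Of these entries 26497 held at least 1 read and 14085 passed the filter on low counts. SQSTM1 did not pass, so that 8 of the 9 members were tested. RNA was sequenced from 12 cultures of the multiple myeloma lines MM1S, which is glucocorticoid (GC)-sensitive, and MM1R, which is GC-resistant and comes from the same patient. Each line was left untreated (UT) or received withaferin A (WA), a plant withanolide that binds thiols of proteins, at 1 µM for 3 h. Each of the 4 groups held 3 cultures of different passage, which were 16, 22 and 23 in MM1S cells and 4, 6 and 7 in MM1R cells, and all cells grew in RPMI-1640 with fetal bovine serum. The labels name no vehicle for the untreated cultures. Since the lines share no passage number, line and passage cannot be told apart, and each line stands for 1 cell line only.

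Cells make ubiquitin as fusion proteins or head-to-tail repeats that are cut into single units. UBB encodes such repeats and is known as a stress-inducible gene, whereas RPS27A encodes 1 ubiquitin fused to a ribosomal protein. In selective autophagy, a receptor binds ubiquitin on the cargo with one domain and a lipid-bound ATG8 protein on the growing membrane with a short motif, so that aggregates, mitochondria or parts of the endoplasmic reticulum are enclosed and delivered to lysosomes. Plasma cells and the tumours that arise from them secrete much protein and rely on the proteasome and on autophagy for the removal of misfolded chains.

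The 12 cultures gave 17625110 to 19368343 counted reads each (median 18555625). All 8 plasma cell markers examined, SDC1 and IRF4 among them, were above 1 CPM (counts scaled per 1000000 reads) in each culture. Of the markers of other cell types, the B cell markers MS4A1 and PAX5 had at most 2 and 3 reads. Of the 3 T cell markers, CD3G was at 0 in all 12 cultures and CD3D had at most 1 read, whereas CD3E had 63 to 211 reads, and their summed level was 3.26 to 7.51 CPM in untreated MM1S and 4.77 to 6.71 CPM with WA, and 6.14 to 11.6 and 7.25 to 9.23 CPM in MM1R. The monocyte marker FCGR3A and the epithelial marker KRT5 were at 0 in all cultures, while CD14 and LYZ had at most 7 and 2 reads, EPCAM 5 to 21 and CDH1 at most 2. The summed level of the 3 fibroblast markers was 0.497 to 1.09 CPM in untreated MM1S and 2.3 to 6.55 CPM with WA, and 1.52 to 2.34 and 5.29 to 17.9 CPM in MM1R. These reads lay almost entirely on COL1A1, as COL1A2 had none and DCN at most 1 read, and the part of CD3E and COL1A1 in the results was not tested. The cultures of a group were treated as separate libraries, since their counts departed from sampling noise alone with a chi-square of 8.2 to 46.5 for each degree of freedom. In bulk RNA, fewer cells of a kind and less RNA per cell cannot be told apart.

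The members differ widely in how much of their sequence occurs at more than 1 place of the genome, which bears on their counts. Of the 50-base windows of the reference transcript, 39.7% of those of UBB occurred more than once in GRCh37, as did 17.5% of those of MAP1LC3B, 4.47% of those of GABARAPL1 and 0.7% of those of OPTN. None did for SQSTM1, NBR1, WIPI1, ULK1 or HDAC6. Repeats within a gene, such as the ubiquitin repeats of UBB, were not told apart from copies at other loci. The pseudogene UBBP4 held 8 to 37 reads per culture against 9083 to 26148 for UBB, and MAP1LC3B2 held 3 to 13 reads against 1194 to 1881 for MAP1LC3B, so that few reads were assigned to these copies. How the counting treated reads that map to several places was not given in the sources used here. In this respect the levels of UBB and MAP1LC3B are less certain than those of the other tested members. The windows were sought in GRCh37 only, and the untested SQSTM1 has a limit of its own, given further on.

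In the GENCODE annotation of GRCh37 (hg19), the build that the study names, UBB lies on the plus strand at chr17:16284112-16286059 with 2 exons, GABARAPL1 at chr12:10365057-10375727 and MAP1LC3B at chr16:87417559-87438385, each on the plus strand with 4 exons. The receptors lie at chr5:179233398-179265078 (SQSTM1, 8 exons), chr17:41322498-41363708 (NBR1, 21 exons) and chr10:13141449-13180308 (OPTN, 15 exons), all on the plus strand. WIPI1 lies on the minus strand at chr17:66417089-66453654 with 13 exons. ULK1 and HDAC6 lie on the plus strand at chr12:132379167-132407695 with 28 exons and at chrX:48659784-48683392 with 29 exons. The table of counts gives no coordinates. Of 586 pairs of genes at most 5 places apart in the table whose order differs between the builds, 570 followed GRCh38 and 16 GRCh37, so these positions are those of the annotation and not of the authors' files.

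Of the members, UBB, GABARAPL1 and MAP1LC3B were higher with WA in both lines, as described further on, and the 250 bases before their RefSeq start sites (GRCh38.p14) are shown here because of that shared direction. They lie at chr17:16381091-16381340 (UBB, the second of its 2 start sites), chr12:10212627-10212876 (GABARAPL1) and chr16:87392086-87392335 (MAP1LC3B), all on the plus strand, and are printed from 5′ to 3′ with the motif found in capitals. RefSeq promoters were matched for 9 of 9 members, with 16 start sites.
UBB: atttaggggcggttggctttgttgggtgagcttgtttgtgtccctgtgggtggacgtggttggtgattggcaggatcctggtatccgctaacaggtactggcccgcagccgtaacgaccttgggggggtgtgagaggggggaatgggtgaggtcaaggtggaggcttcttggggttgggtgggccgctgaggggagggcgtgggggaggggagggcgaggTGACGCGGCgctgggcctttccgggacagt
GABARAPL1: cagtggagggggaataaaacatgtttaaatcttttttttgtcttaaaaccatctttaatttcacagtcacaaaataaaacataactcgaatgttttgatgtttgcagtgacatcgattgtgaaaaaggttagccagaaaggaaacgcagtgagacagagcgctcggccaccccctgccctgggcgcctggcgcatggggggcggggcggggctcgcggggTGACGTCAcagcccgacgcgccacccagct
MAP1LC3B: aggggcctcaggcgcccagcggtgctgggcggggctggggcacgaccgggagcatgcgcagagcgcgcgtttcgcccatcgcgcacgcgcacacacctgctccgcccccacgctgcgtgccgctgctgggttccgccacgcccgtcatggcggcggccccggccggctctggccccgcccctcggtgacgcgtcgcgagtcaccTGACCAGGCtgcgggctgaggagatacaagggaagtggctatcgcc

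Altogether 6 motifs were searched on both strands. The cyclic AMP response element TGACGTCA, whose letters were added to the search after this sequence had been seen, starts 30 bases before the start site of GABARAPL1 and occurs in 1.65% of 35116 promoter windows of this length. The core of the antioxidant response element, TGACNNNGC, starts 30 bases before the second start site of UBB, 46 bases before that of MAP1LC3B, and 96 and 10 bases before the second start site of HDAC6, a gene that was not called with WA in either line. It is held by 10.9% of all windows. The window before the first start site of UBB, at chr17:16381040-16381289 and not printed, held none of the 6 motifs. The paired heat shock units GAANNTTC (5.78% of all windows) and TTCNNGAA (6.62%), the E-box CACGTG (6.34%) and the letters TGATGCAA (0.772%) were in none of the 16 member windows. A match describes letters and not binding.

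Per kilobase of exon sequence, the tested members differed widely in untreated MM1S cells. The level of UBB was 303 ± 14.6 RPKM (reads per kilobase of exon, scaled as CPM, SD, n = 3), followed by OPTN at 22.1 ± 1.58, MAP1LC3B at 14.4 ± 0.685, NBR1 at 14.0 ± 1.02, WIPI1 at 4.98 ± 1.03, GABARAPL1 at 4.03 ± 0.664, HDAC6 at 3.10 ± 0.378 and ULK1 at 2.96 ± 0.401. UBB and OPTN stood clear of their neighbours in this order in all 4 groups. MAP1LC3B and NBR1 overlapped in 3 of the 4 groups and were separate in MM1R with WA, at 18.3 to 19.8 against 16.4 to 17.9 RPKM. GABARAPL1 overlapped with WIPI1 in untreated MM1S and lay above it with WA in both lines, at 8.38 to 13.1 against 3.58 to 4.33 RPKM in MM1S and at 8.12 to 10.6 against 3.99 to 4.84 RPKM in MM1R. HDAC6 and ULK1 overlapped in both MM1S groups. This order rests on the union of annotated exons. With the length of the longest transcript, HDAC6 (7.73 RPKM) exceeded GABARAPL1 (5.08 RPKM) and NBR1 (25.3 RPKM) exceeded MAP1LC3B (23.1 RPKM) in untreated MM1S. The order by this length was not examined in the other groups.

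To ask how WA acts on these genes, treated and untreated cultures were compared within each line. WA raised the ubiquitin gene UBB and the ATG8 genes GABARAPL1 and MAP1LC3B in MM1R and in MM1S cells, and no member was called lower. These were 3 of the 8 tested members in MM1R, where 14% of all tested genes were called (7.55% higher and 6.46% lower), and 3 of 8 in MM1S, where 10.5% were called (6.25% higher and 4.23% lower). The median log2 fold change of the tested members was 0.30 in MM1R and 0.23 in MM1S, against 0.01 over all tested genes in either line. The members were chosen with earlier results of these data known, so these counts and medians are description only and carry no test. With passage as a block, 6 of 8 members were called in MM1R (29.1% of all genes) and 4 of 8 in MM1S (24.1%).

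**Figure D1:**
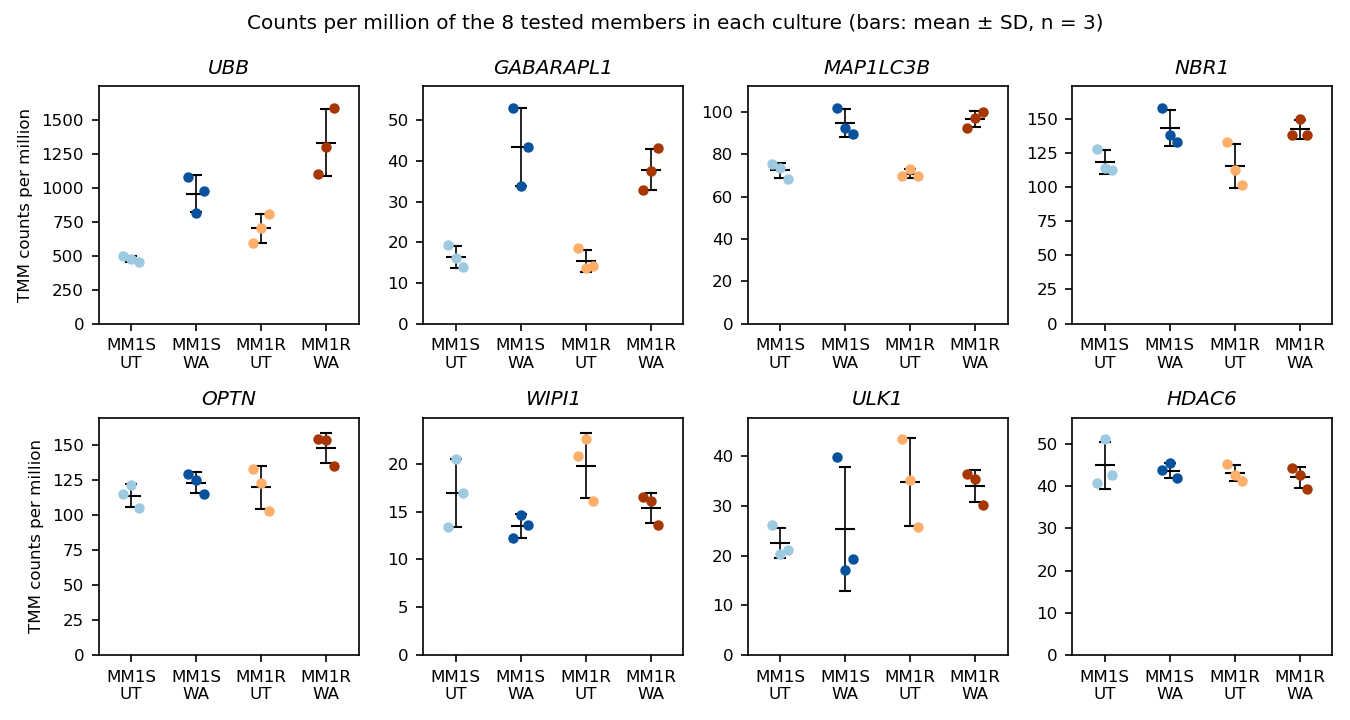
TMM-scaled CPM of the 8 tested members in each of the 12 cultures, with 1 panel per gene, the 4 groups on the horizontal axis and a vertical axis from 0. Points are cultures in order of passage, and bars give the mean and SD of 3 cultures. UBB, GABARAPL1 and MAP1LC3B in all WA cultures lie above the untreated cultures of the same line, as do NBR1 in both lines and OPTN in MM1R. WIPI1, ULK1 and HDAC6 overlap between treatments. The groups did not overlap, in one direction or the other, for 30.3% of all tested genes in MM1S and 33.3% in MM1R.

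UBB was counted at 497, 475 and 452 CPM in untreated MM1S cultures of passages 16, 22 and 23 and at 1080, 815 and 976 CPM with WA. In MM1R it was counted at 592, 703 and 809 CPM in untreated passages 4, 6 and 7 and at 1100, 1300 and 1590 CPM with WA. All 3 WA cultures of a line thus lay above its untreated cultures, and in MM1R both treatments were highest in passage 7. Treated and untreated cultures did not overlap, in one direction or the other, for 30.3% of all tested genes in MM1S and 33.3% in MM1R. The log2 fold change was 1.01 in MM1S (SE 0.16, adjusted p = 0.0011, edgeR quasi-likelihood test with Benjamini-Hochberg adjustment) and 0.92 in MM1R (SE 0.16, adjusted p = 0.0018), which correspond to 2.02-fold and 1.90-fold. Within passages, UBB rose by 0.78 to 1.12 on the log2 scale in MM1S and by 0.89 to 0.97 in MM1R. The pseudogene UBBP4 had a log2 value of 1.14 in MM1S (adjusted p = 0.085) and 1.19 in MM1R (adjusted p = 0.055) on its 8 to 37 reads and was not called.

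RPS27A, which supplies ubiquitin as a ribosomal fusion and is no member, was counted at 353 to 360 CPM in untreated MM1S and 330 to 349 CPM with WA, and at 320 to 462 and 347 to 446 CPM in MM1R. Its log2 fold change was -0.07 in MM1S (95% interval -0.35 to 0.21) and 0.01 in MM1R (-0.27 to 0.29), and it was not called. The intervals of UBB lay above these, at 0.68 to 1.35 in MM1S and 0.59 to 1.26 in MM1R, although the difference between the genes was not tested itself.

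Of all counted reads, UBB took 0.0492% ± 0.00238 (SD, n = 3) in untreated MM1S and 0.0955% ± 0.0147 with WA, and 0.0695% ± 0.00827 and 0.128% ± 0.0179 in MM1R. RPS27A took 0.0369% ± 0.00046 and 0.0338% ± 0.000312 in MM1S, and 0.0386% ± 0.00565 and 0.0381% ± 0.00304 in MM1R. Per exon length, UBB was at 303 ± 14.6 RPKM in untreated MM1S and 611 ± 86.1 RPKM with WA, and at 448 ± 69.4 and 848 ± 159 RPKM in MM1R.

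GABARAPL1, an ATG8 protein of the GABARAP branch, had the largest fold change of the tested members. It was counted at 19.2, 16.0 and 13.8 CPM in untreated MM1S and at 53.1, 33.9 and 43.3 CPM with WA, and at 18.6, 13.6 and 14.1 CPM in untreated MM1R and 32.9, 37.5 and 43.1 CPM with WA. The lowest WA culture lay above the highest untreated culture in both lines. The log2 fold change was 1.41 in MM1S (SE 0.19, adjusted p = 0.00033) and 1.29 in MM1R (SE 0.19, adjusted p = 0.00063). MAP1LC3B, the ATG8 protein LC3B that is commonly used to mark autophagosomes, rose less. Its counts were 75.2, 73.4 and 68.5 CPM in untreated MM1S, 102, 92.4 and 89.5 CPM with WA, 69.6, 73.2 and 69.6 CPM in untreated MM1R and 92.3, 97.3 and 99.7 CPM with WA. Its log2 fold change was 0.39 in MM1S (SE 0.09, adjusted p = 0.018) and 0.45 in MM1R (SE 0.09, adjusted p = 0.0067). The call in MM1S was lost without the untreated cultures of passage 22 (adjusted p = 0.067) or 23 (0.096), without the WA culture of passage 16 (0.065) and with no filter on low counts (0.12), whereas the call in MM1R held without any 1 of the 12 cultures. The 2 other ATG8 genes that could be tested were not called, as GABARAP had log2 fold changes of 0.09 in MM1S and -0.02 in MM1R, and GABARAPL2 of 0.02 and 0.00. MAP1LC3A, MAP1LC3B2 and MAP1LC3C did not pass the filter.

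In MM1S, the smallest rise of UBB, GABARAPL1 and MAP1LC3B was that of passage 22 in each case, with 0.78, 1.07 and 0.33 on the log2 scale against 1.11 to 1.12, 1.45 to 1.61 and 0.38 to 0.44 in the other passages. In MM1R the smallest rise of GABARAPL1 (0.80) was in passage 4. All 6 pairs of cultures rose for each of the 3 genes, and also for NBR1 and OPTN, which the main fit did not call. The share of all tested genes that moved in 1 direction in all 6 pairs was not counted.

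**Figure D2:**
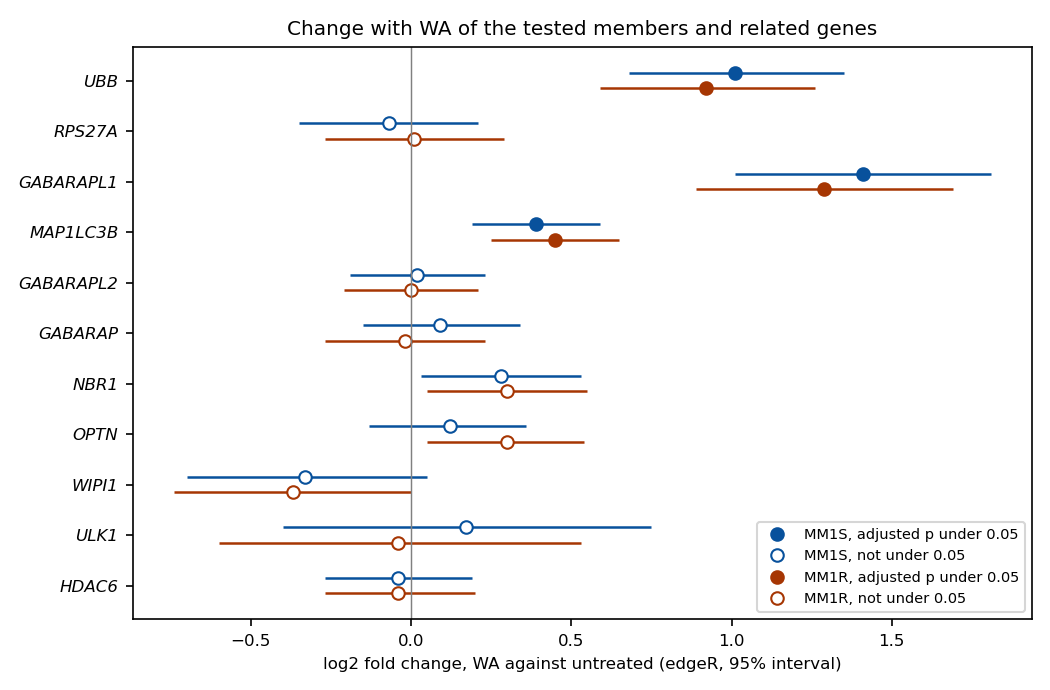
Log2 fold change with WA (horizontal axis, edgeR, points with 95% intervals) of the 8 tested members, the ubiquitin fusion gene RPS27A and the ATG8 genes GABARAP and GABARAPL2 in MM1S (blue) and MM1R (red-brown). Filled points mark an adjusted p under 0.05. UBB, GABARAPL1 and MAP1LC3B lie above 0 in both lines, and WIPI1 lies at -0.33 and -0.37 with open points.

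The receptors NBR1 and OPTN had small positive values that hardly moved with the pairing of cultures. Their calls did depend on it, except for OPTN in MM1S, which was called neither way. NBR1, which binds ubiquitin and ATG8 proteins and gathers protein aggregates, was counted at 128, 114 and 112 CPM in untreated MM1S and 158, 138 and 133 CPM with WA, and at 133, 112 and 101 CPM in untreated MM1R and 138, 150 and 138 CPM with WA. The treated cultures lay above the untreated ones in both lines, by small margins. Its log2 fold change was 0.28 in MM1S (SE 0.12, adjusted p = 0.15) and 0.30 in MM1R (SE 0.12, adjusted p = 0.11), and with passage as a block the adjusted p was 0.037 and 0.022. Without the untreated MM1R culture of passage 4, the value in MM1R was 0.41 (adjusted p = 0.035). OPTN, a receptor for mitochondria, bacteria and aggregates, was counted at 115, 121 and 105 CPM in untreated MM1S and at 129, 125 and 115 CPM with WA, groups that overlap. In MM1R its counts were 133, 123 and 103 CPM untreated and 154, 153 and 135 CPM with WA. The log2 fold change was 0.12 in MM1S (adjusted p = 0.59) and 0.30 in MM1R (SE 0.11, adjusted p = 0.097), and with the passage block the adjusted p in MM1R was 0.011.

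The genes of the early machinery and HDAC6 were not called. WIPI1, which binds phosphoinositides on the growing membrane, was counted at 13.4, 20.5 and 17.0 CPM in untreated MM1S and 12.2, 14.7 and 13.6 CPM with WA, and at 20.8, 22.6 and 16.1 CPM and 16.5, 16.1 and 13.6 CPM in MM1R. It was lower with WA in 6 of 6 pairs of the same passage, by 0.13 to 0.47 on the log2 scale, while the groups as a whole overlapped. Here too the share of all tested genes with such agreement was not counted. The log2 fold change of WIPI1 was -0.33 in MM1S (SE 0.17, adjusted p = 0.27) and -0.37 in MM1R (SE 0.17, adjusted p = 0.18), with an adjusted p of 0.029 in MM1R and 0.062 in MM1S under the passage block. ULK1, the kinase that starts autophagosome formation, was counted at 26.1, 20.4 and 21.2 CPM in untreated MM1S and at 39.8, 17.1 and 19.4 CPM with WA, so that 1 treated culture, of passage 16, stood apart. Its log2 fold change was 0.17 in MM1S (95% interval -0.40 to 0.75) and was -0.30 without that culture, and it was -0.04 in MM1R (-0.60 to 0.53). HDAC6 varied little, between 39.2 and 51.1 CPM over all 12 cultures, with log2 fold changes of -0.04 in both lines and intervals of -0.27 to 0.19 in MM1S and -0.27 to 0.20 in MM1R.

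The count of SQSTM1, which codes for the receptor p62, cannot be read as the level of its mRNA. The entry held 4, 1 and 1 reads in untreated MM1S, 3, 6 and 11 reads with WA, 2, 1 and 2 reads in untreated MM1R and 5, 9 and 12 reads with WA. A second entry with a copy number after the symbol, SQSTM1_1, held at most 10 reads in any culture. Of the 9 plain entries at and around SQSTM1 in the table, 8 have such a copy entry, and the table holds 4743 copy entries for 2363 symbols that also have a plain entry. Of these symbols 87% had at most 12 reads in all cultures, against 61.7% of the 36630 symbols with no copy entry. The sum over 3 cultures was 20 reads with WA and 6 untreated in MM1S, a depth-corrected ratio of 3.53 (95% exact interval 1.37 to 10.7), and 26 and 5 reads in MM1R, a ratio of 5.36 (2.03 to 17.9), and these intervals cover counting error only. In a fit with no filter the log2 fold change was 2.33 in MM1R (SE 0.79, adjusted p = 0.039) and 1.74 in MM1S (SE 0.79, adjusted p = 0.22). Reads on this entry were higher with WA in all 3 passages of MM1R and in 2 of 3 of MM1S, where passage 16 had 4 reads untreated and 3 with WA. What part of the SQSTM1 reads they are was not tested. Of the other listed autophagy genes, ATG16L1 (0 to 7 reads), PLEKHM1 (0 to 5 reads) and CTSB (810 to 1380 reads) also have copy entries. The copy of CTSB held 303 to 548 reads, which its tested value leaves out. Of PLEKHM1, 1 copy held 74 to 109 reads, while its other copy and that of ATG16L1 held 0.

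To see whether the lines differ in these genes before treatment, untreated MM1R was compared with untreated MM1S. UBB was higher in MM1R, with 592 to 809 against 452 to 497 CPM and a difference of 0.56 on the log2 scale (SE 0.16, adjusted p = 0.032). No other of the 8 tested members was called, where 11.9% of all tested genes were. Under the stricter limit of the study, which asks for an adjusted p under 0.01 together with at least 1 on the log2 scale, edgeR called 0 of 8 members and 2.97% of all genes. At an unadjusted p of 0.05 there were 2 of 8 members, UBB and ULK1, and 25.9% of all tested genes. Of all tested genes, 6.44% were called higher in MM1R, and the 2 groups of untreated cultures did not overlap for 32.3%, UBB among them. The call of UBB was lost without the untreated MM1S culture of passage 22 (adjusted p = 0.10) or 23 (0.12) or the untreated MM1R culture of passage 6 (0.093) or 7 (0.13), with log2 fold changes of 0.45 to 0.56. ULK1 was counted at 43.5, 35.3 and 25.8 CPM in untreated MM1R against 20.4 to 26.1 CPM in MM1S (log2 fold change 0.63, SE 0.27, adjusted p = 0.15), and it was called with no filter on low counts (0.62, adjusted p = 0.0026) and without the WA culture of MM1S of passage 16 (0.63, adjusted p = 0.025). The other 6 tested members had values between -0.08 and 0.23.

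With WA, 0 of 8 members were called between the lines by edgeR, where 12% of all tested genes were. At an unadjusted p of 0.05 there were 2 of 8, UBB and OPTN, and 28% of all tested genes, and DESeq2 called 1 member, UBB, among 2101 genes in all. UBB was again higher in MM1R, at 1100 to 1590 against 815 to 1080 CPM (log2 fold change 0.47, SE 0.16, adjusted p = 0.064). It passed the limit without the WA cultures of MM1S passage 16 (0.57, adjusted p = 0.031) or MM1R passage 4 (0.59, adjusted p = 0.037). OPTN was 0.26 higher (SE 0.11, adjusted p = 0.15), with 135 to 154 CPM in MM1R and 115 to 129 CPM in MM1S, and like UBB its groups did not overlap, as for 29.1% of all tested genes. ULK1 differed by 0.42 on the log2 scale (SE 0.27, adjusted p = 0.32), which was 0.90 (adjusted p = 0.0072) without the MM1S culture of passage 16.

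The effect of WA itself was compared between the lines as an interaction. By edgeR it was called for 0 of 8 members and 0% of all tested genes. At an unadjusted p of 0.05 it was 0 of 8 members and 97 of 14085 genes (0.689%), and DESeq2 called 0 members and 1 gene. The difference, as the log2 fold change in MM1R minus that in MM1S, was -0.09 for UBB (95% interval -0.56 to 0.38), -0.12 for GABARAPL1 (-0.68 to 0.44), 0.06 for MAP1LC3B (-0.22 to 0.34), 0.02 for NBR1 (-0.34 to 0.37) and 0.18 for OPTN (-0.16 to 0.53). The interval for ULK1 was the widest (-1.02 to 0.60) and that for MAP1LC3B the narrowest. The values were -0.21 for ULK1, -0.04 for WIPI1 (-0.57 to 0.48) and 0.00 for HDAC6 (-0.33 to 0.34). Differences within these intervals were not detectable with 3 cultures per group.

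The wider pathway was described with 8 lists that hold 92 genes, of which 85 were tested. In MM1R, 11 rose and 3 fell with WA (16.5% of the 85), and in MM1S 9 rose and 3 fell (14.1%), with medians of 0.01 and 0.06 against 0.01 over all genes. These shares stand near those of all tested genes, 14% and 10.5%. With passage as a block, 31 of the 85 were called in MM1R, where 29.1% of all tested genes were, and 24 in MM1S, where 24.1% were. In the ATG8 family, 2 of 4 tested genes were called in either line, and in the other lists at most 3.

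**Figure D3:**
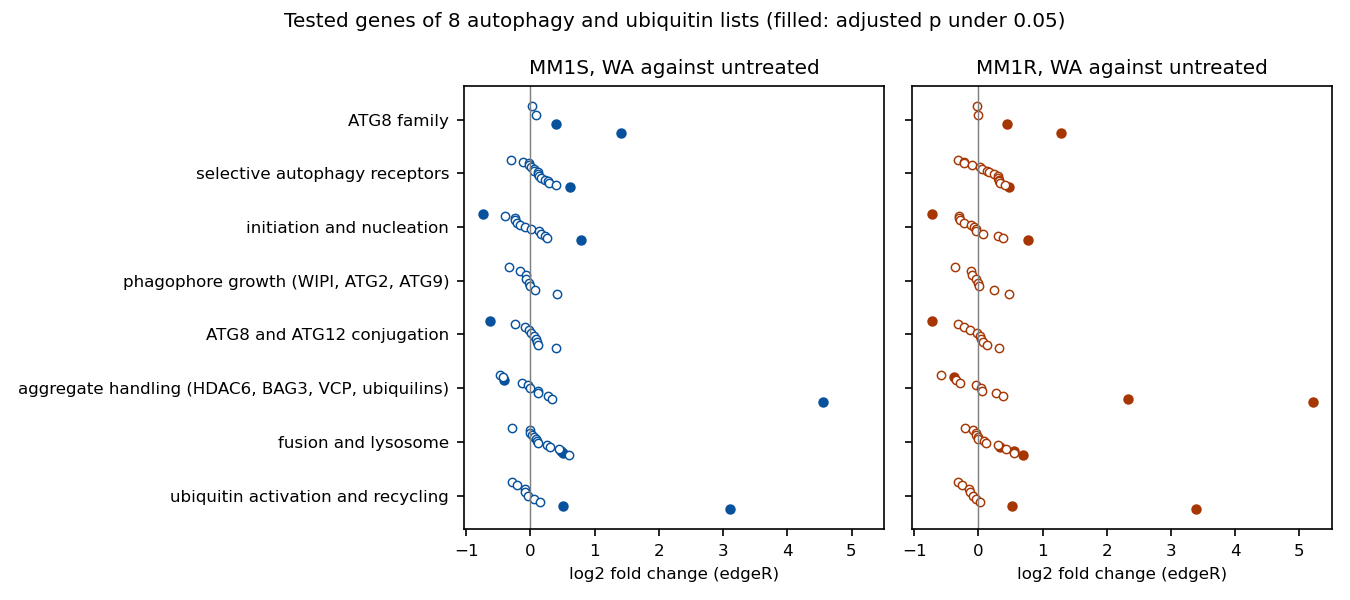
Log2 fold change with WA (horizontal axis, edgeR) of the 85 tested genes of 8 lists in MM1S (left) and MM1R (right), with 1 row per list and filled points for an adjusted p under 0.05. Most points lie near 0, and BAG3, ZFAND2A and, in MM1R, HSPB8 lie beyond 2, while HSPB8 is plotted at 0 in MM1S, where it had no reads.

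Of 16 tested receptors, only CCPG1 was called in either line. This is 6.25%, where 14% of all tested genes were called in MM1R and 10.5% in MM1S. CCPG1, a receptor for the endoplasmic reticulum, rose from 18.7 to 25.1 CPM in untreated MM1S to 28.8 to 36.7 CPM with WA (log2 fold change 0.61, adjusted p = 0.0086) and from 22.4 to 24.8 to 32.6 to 33.2 CPM in MM1R (0.48, adjusted p = 0.024). Under the passage block, 6 of the 16 receptors were called in MM1R and 5 in MM1S, where 29.1% and 24.1% of all tested genes were. In the list of initiation and nucleation genes, 1 of 13 rose and 1 fell in each line (15.4%), a share near that of all tested genes. ATG14, a subunit of the lipid kinase complex that starts the membrane, rose by 0.79 in MM1S (adjusted p = 0.015) and 0.77 in MM1R (adjusted p = 0.013). RUBCN, which holds back a related complex, fell from 123 to 125 CPM to 67.5 to 77.8 CPM in MM1S (log2 fold change -0.74, adjusted p = 0.0043) and by 0.72 on the log2 scale in MM1R (adjusted p = 0.0041). The block gave 5 called genes of the 13 in this list in MM1R and 3 in MM1S, beside 29.1% and 24.1% of all tested genes.

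Of the genes that attach ATG8 and ATG12, 1 of 10 was called in each line, where 14% of all tested genes were in MM1R and 10.5% in MM1S. The called gene was ATG4C, a protease that trims ATG8 proteins. It fell by 0.63 on the log2 scale in MM1S (adjusted p = 0.004) and by 0.72 in MM1R (adjusted p = 0.0014). None of the 8 genes of phagophore growth was called by edgeR. Under the passage block 2 were in MM1R and 0 in MM1S, where 29.1% and 24.1% of all tested genes were. At an unadjusted p of 0.05 it was 1 of 8 in each line, against 28.4% of all tested genes in MM1R and 24.9% in MM1S. This 1 gene was ATG9A, which codes for a protein that scrambles membrane lipids. In the list for fusion and lysosomes, 3 of 14 rose in MM1R and 2 in MM1S, where 7.55% and 6.25% of all tested genes were called higher. TFEB and TFE3, transcription factors of lysosomal genes, rose by 0.69 (adjusted p = 0.0042) and 0.55 (0.0038) in MM1R and by 0.47 (0.042) and 0.51 (0.0075) in MM1S. STX17, a SNARE of autophagosomes, rose by 0.33 in MM1R (adjusted p = 0.034) and had a value of 0.26 in MM1S (0.099).

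The largest changes lay among the genes that handle aggregates and recycle ubiquitin. BAG3, a co-chaperone that passes clients of HSP70 to selective autophagy, was counted at 54.5 to 64.6 CPM in untreated MM1S and 814 to 1920 CPM with WA (log2 fold change 4.55, SE 0.36, adjusted p = 5.2e-06), and at 50.1 to 57.0 and 1290 to 3200 CPM in MM1R (5.21, SE 0.37, adjusted p = 2.4e-06). HSPB8, the small heat shock protein that binds BAG3, had 0 reads in all 6 MM1S cultures, 4 to 9 reads in untreated MM1R and 16 to 51 with WA. It passed the filter on low counts only through the WA cultures of MM1R, so that its call there, counted above among the 11 that rose, is no support for a change. Against a floor of 3 reads per MM1S library, its mean level in MM1R was 2.38-fold untreated and 11.6-fold with WA. These ratios allow for no counting error in the MM1R reads. Because of the filter, they are no support for a difference between the lines either. STUB1, the ubiquitin ligase CHIP, fell by 0.41 on the log2 scale in MM1S (adjusted p = 0.044) and by 0.38 in MM1R (0.05 after rounding, rank 1959 of 1973 called genes). ZFAND2A, a zinc finger protein that binds the proteasome under stress, rose by 3.10 in MM1S (adjusted p = 2e-04) and 3.39 in MM1R (adjusted p = 0.00011), and ZFAND5, which also binds the proteasome, by 0.51 (0.044) and 0.53 (0.03). Under the passage block, 7 of the 11 aggregate-handling genes passed in MM1R and 5 in MM1S, where 29.1% and 24.1% of all tested genes did. In MM1R, BAG3, HSPB8, WDFY3 and UBQLN1 were higher and STUB1, VCP and UBQLN4 lower. In MM1S, BAG3 and UBQLN1 were higher and STUB1, UBQLN2 and UBQLN4 lower. The median log2 fold change of this list, without the block, was 0.04 in MM1R and 0 in MM1S.

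The genes whose log2 CPM over the 12 cultures resembled that of UBB most were NXT2 (Pearson r = 0.984, Spearman rho = 0.993), GLRX (0.98 and 0.965) and MED29 (0.976 and 0.958). The points share their libraries and treatment, so these values describe a ranking and carry no test. The same ranking was not made for SQSTM1, whose entry held 1 to 12 reads.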

How the data were processed

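The authors deposited raw counts, in which each value is the reads on 1 gene in 1 culture as counted by STAR (2.7.3a per the labels, which also list FastQC 0.11.5 and hg19), without normalization. Annotation, strand and the treatment of multiply mapped reads are not given in the sources used here. A second deposited table of DESeq2-normalized values was not used. Groups and passages came from the sample labels.

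Members and lists were chosen with earlier results of these data known. In R 4.3.3, genes were kept by filterByExpr of edgeR 4.0.16 (minimum count 10), scaled by TMM and tested with the quasi-likelihood test on all 12 libraries jointly, with p-values adjusted by Benjamini-Hochberg over 14085 genes and a limit of 0.05. CPM are TMM-scaled and RPKM use the union of GENCODE v44 exons on GRCh37. Changes within passages used CPM with a pseudocount of 0.5. Named genes were the members, the genes that code for ubiquitin, the ATG8 genes, of each other list up to 3 called non-members with the smallest p, and the 3 genes most like UBB. UBBP4 and the listed genes with copy entries were named in addition, after their values had been seen, and some genes under this rule are not reported here. Builds were compared over pairs of genes at least 20000 bases apart in both. The study describes the samples of a group as biologically independent and the labels give their passages, and p-values measure the spread between these cultures. Reads carry no molecular identifiers, so intervals of ratios and floors cover counting error only.

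Pairing by passage, which the labels give, was checked by correlating deviations from group means. For passages 16, 22 and 23 the correlation was 0.71, 0.25 and 0.44. For passages 4, 6 and 7 it was 0.39, 0.18 and 0.22. Passage 22 correlated better with a different passage (0.37). The main tests fitted 1 mean per group and did not pair the cultures. Passage served as a pairing only in the alternative with a block and in the changes within passages. On simulated counts with a log2 fold change of 1.58, edgeR recovered 84.6% of changed genes among 13855 tested for WA in MM1R and 85.2% among 13847 for WA in MM1S, and 2.9% and 3.5% of its calls were false. For the interaction it recovered 72.2% among 13837, and 4.1% of its calls were false. Of the DESeq2 calls, 10.1% were false for WA in MM1R, 8.8% in MM1S, 13.6% between untreated lines and 16.3% for the interaction. The tested members had smaller log2 fold changes, at most 1.41 with WA, and recovery at such values was not tested. The alternatives were DESeq2 1.42.0, other scalings and filters, the 6 libraries compared alone, the passage block, other lengths and each library left out.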

Additional observations from a re-analysis of the deposited data

How the results depend on the processing

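UBB and GABARAPL1 were called higher with WA in both lines under all alternatives run, with UBB at 0.80 to 1.04 in MM1R and 0.92 to 1.12 in MM1S, and GABARAPL1 at 1.19 to 1.45 and 1.24 to 1.56, when each library was left out in turn. For MAP1LC3B these ranges were 0.43 to 0.48 and 0.33 to 0.42. The number of members called ranged over these fits from 3 to 4 in MM1R, 2 to 3 in MM1S, 0 to 2 between untreated lines, 0 to 2 between lines with WA and 0 to 0 for the interaction. Of all tested genes, 950 to 2396, 726 to 1621, 821 to 2107, 811 to 2948 and 0 to 0 were called in the same order. The fourth call in MM1R was NBR1 without the untreated MM1R culture of passage 4. In 3 other fits, without the untreated or WA culture of MM1S passage 16 or the WA culture of MM1R passage 4, it was SQSTM1, which passed the filter there only through WA cultures, so that these calls are no support for a change. With passage as replicate block, 6 members were called in MM1R by edgeR and 5 by DESeq2, 4 in MM1S by both, and no call was lost. The edgeR block called 29.1% of all tested genes in MM1R and 24.1% in MM1S. The shares for the DESeq2 block are not given here.

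Between lines with WA, 1 member (UBB) was called with upper-quartile scaling, with no filter, with a minimum of 10 reads in all libraries and with DESeq2 (adjusted p 0.024 to 0.048). Between untreated lines, 2 were called with no filter and 0 at an adjusted p of 0.01, at which MAP1LC3B in MM1S was also not called. By the length of the longest transcript, levels in untreated MM1S were 449 RPKM for UBB, 0.0362 for SQSTM1, 25.3 for NBR1, 32.2 for OPTN, 5.08 for GABARAPL1, 23.1 for MAP1LC3B, 8.88 for WIPI1, 4.24 for ULK1 and 7.73 for HDAC6.

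Values near 0 that had not been called changed sign. With upper-quartile scaling ULK1 and HDAC6 were 0.01 with WA in MM1R, NBR1 was 0.04 and HDAC6 0.00 between lines with WA, and WIPI1 was 0.00 for the interaction. With at least 10 reads in every library ULK1 and HDAC6 were 0.00 with WA in MM1R, and NBR1 was 0.02 between lines with WA. With the replicate block HDAC6 was 0.00 for the interaction. Leaving out 1 library, the ranges that cross 0 were -0.21 to 0.15 (ULK1) and -0.07 to 0.04 (HDAC6) with WA in MM1R, and -0.30 to 0.39 (ULK1) and -0.10 to 0.06 (HDAC6) in MM1S. Between untreated lines they were -0.24 to 0.05 for GABARAPL1, -0.12 to 0.04 for HDAC6, -0.14 to 0.05 for NBR1 and 0.00 to 0.17 for OPTN. With WA they were -0.01 to 0.08 for MAP1LC3B, -0.07 to 0.06 for NBR1 and -0.09 to 0.02 for HDAC6. For the interaction they were -0.21 to 0.03 for UBB, -0.07 to 0.13 for NBR1, -0.27 to 0.05 for GABARAPL1, -0.43 to 0.27 for ULK1, -0.20 to 0.10 for WIPI1 and -0.10 to 0.08 for HDAC6. The cause of these changes was not tested. The limit for SQSTM1 is its 1 to 12 reads per entry, while the other members held at least 223 reads.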
